A study of Argopecten irradians with 2 samples.

Results

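The mucins and mucus proteins of the bay scallop gill were described here as 245 unigenes, the assembled transcripts that stood for genes in this study. They were chosen by annotation and not by their change. The best Swiss-Prot match of each had to contain mucin, mucus, IgGFc-binding, zonadhesin, von Willebrand, SCO-spondin or polypeptide N-acetylgalactosaminyltransferase, and the unigene had to hold at least 10 reads over both libraries. Among the 60308 unigenes listed, 306 matched these words, and 61 of them stayed under the minimum of reads. The 245 members were thus part of 38391 unigenes with at least 10 reads, of which 16630 had a Swiss-Prot entry.

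The study asked how the gill of *Argopecten irradians*, a farmed bivalve, responds to palmitoleic acid (PA), a fatty acid of bacterial origin proposed as an agent against harmful algae. PA gills came from scallops held at 80 mg/L PA for 48 h, and control gills came from scallops held for 48 h without it (0 mg/L). By the paper, PA was given in dimethyl sulphoxide (DMSO), and control scallops received the same volume of DMSO. Each condition was 1 RNA library made from the pooled gills of 18 individuals, so there was no replicate check and no difference between animals could be measured. Every test below compares these 2 libraries and not the conditions, and the 95% intervals cover counting error only.

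Mucins are secreted or membrane-bound glycoproteins whose long threonine- and serine-rich stretches carry dense O-linked sugars. In vertebrates the gel-forming members link end to end through von Willebrand factor (vWF) type D domains, and the resulting gel traps particles and shields the epithelium from microbes and chemicals. In a bivalve gill, mucus coats the ciliated filaments and takes part in the capture and transport of food particles as well as in defence.

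The PA library held 10414545 reads on 54724 unigenes, and the control library held 10305482 reads on 52852 unigenes. The members took 0.643% of the PA reads (66959.6) and 0.487% of the control reads (50220.5). A unigene was called when the Audic-Claverie test on its reads passed a false discovery rate of 0.001 over all unigenes listed and its FPKM (fragments scaled to unigene length and library size) differed at least 2-fold. By this rule 84 members were called higher in PA and 37 lower, while 124 were not called. These are 34.3% and 15.1% of the members, against 13.3% called higher and 10.7% called lower among all unigenes with at least 10 reads. Among unigenes with a Swiss-Prot entry 17.7% were called higher and 12.6% lower. The members' median log2 fold change of FPKM was 0.69, against 0.21 over all unigenes with at least 10 reads. For the 107 members with a Swiss-Prot E-value of at most 1e-20, a limit chosen after seeing the data, the median was 0.14. A TMM scaling lowered every log2 value by 0.25 and brought the median of all unigenes to -0.03. On that scale 71 members were called higher (29.0%) and 43 lower (17.6%), against 9.97% and 14% of all unigenes, and the members' median was 0.44.

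**Figure D1:**
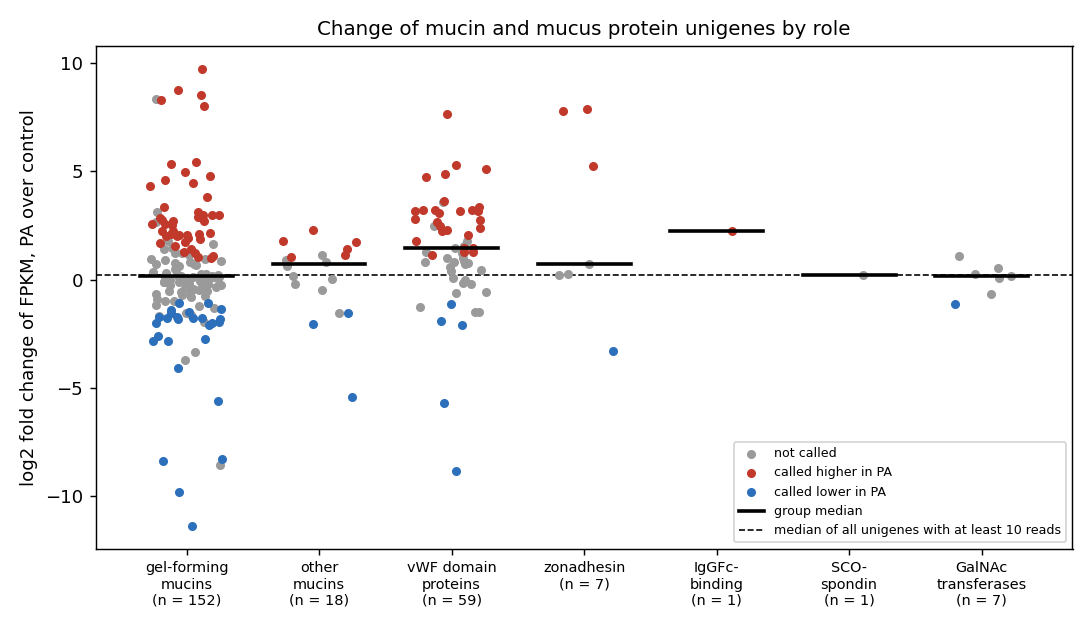
Log2 fold change of FPKM (PA over control) of each of the 245 unigenes, by role, with red points called higher in PA, blue points called lower and grey points not called. Black bars are group medians, 1.45 for the vWF domain proteins and 0.16 for the gel-forming mucins, and the dashed line is the median of all unigenes with at least 10 reads (0.21).

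The label was checked against the other annotations before the groups were compared. Of the 170 members named for a mucin, 53 had their best match in the NCBI non-redundant protein database (Nr) in a mollusc. The word mucin stood in the Nr description of 22 of the 245 members, while the KEGG entry named a mucin for 114. The InterPro column lists at most 1 signature for a unigene, many of them without a description, so a domain that is not listed may still be present. Of the 152 unigenes named for a gel-forming mucin, 38 had a signature, which was a vWF type D domain for 0 and a SEA domain, a module of membrane-bound mucins, for 6. Of the 59 named for a vWF domain protein, 52 had a signature, which was a vWF type D domain for 11 and a type A domain for 1. The best Nr match lay in a choanoflagellate for 19 members and in *Perkinsus*, *Leishmania*, *Trypanosoma* or *Cryptosporidium* for 10. The names below are therefore those of the closest Swiss-Prot sequence and do not state that a unigene encodes the scallop counterpart of that protein.

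Members also were not independent of each other. The 245 unigenes matched 155 different Nr proteins, 109 of them lay in 58 assembly clusters (names beginning with CL), and the read number of 109 was not whole because reads were divided between similar unigenes. Levels of contigs of 1 cluster are thus estimates that could be split in more than 1 way.

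The role group with most members, 152, was that named for gel-forming mucins. It took in the frog integumentary mucins, matched by 80 unigenes for C.1 and 4 for A.1, and whether any member forms a gel was not tested. Unigenes of this group changed in both directions: 46 were called higher in PA (30.3%), 27 lower (17.8%) and 79 not called. The shares of all unigenes given above were 13.3% and 10.7%. Their reads added up to 24812.7 in the PA library and 27032.1 in the control library. Their median log2 fold change was 0.16, and it was -0.08 after TMM scaling, on either scale just under the median of all unigenes (0.21 and -0.03). The 56 unigenes with a Swiss-Prot E-value of at most 1e-20 had 10 called higher, 11 called lower and a median of -0.21.

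Ranked by FPKM in the control library, an order that itself favours falls, the first unigenes of this group were called lower in PA. Unigene31837, matching human Mucin-2, the mucin of the intestinal mucus gel in mammals, had the highest FPKM of any member in the control library. It had 27.9 FPKM (424 reads) in the PA library, against 185.64 FPKM (2793 reads) in the control library, and its log2 fold change was -2.73 (-2.89 to -2.59, the 95% interval). Unigene5917, matching integumentary mucin C.1, a skin mucin of the frog *Xenopus laevis*, was next, with 24.6 FPKM (271 reads) in PA and 173.27 FPKM (1893 reads) in control, at -2.82 (-3.01 to -2.64). Both lay several-fold lower in the PA gill, while Unigene30579 and Unigene22258, next in FPKM in the control library, were not called.

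Further large falls came from unigenes of the same names. CL726.Contig1 (integumentary mucin C.1) had 107 reads in PA and 744.5 reads in control, at -2.81 (-3.12 to -2.52). CL1854.Contig1, matching Mucin-5AC, a mucin of the airway and stomach surface in mammals, had 262 reads in PA and 1591 reads in control, at -2.62 (-2.81 to -2.43). CL3745.Contig2 (integumentary mucin C.1) had 152 reads in PA and 595 reads in control, at -1.99 (-2.25 to -1.73). In the first of these clusters the change was uneven, since CL726.Contig3 had 347 reads in PA and 288 reads in control, and the whole cluster stood at -1.21.

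Some of these unigenes shared a best Nr match, and they did not all move together. Unigene5917, CL3745.Contig1 and CL3745.Contig2 matched the same hypothetical protein of the Pacific oyster and all 3 were called lower. Unigene16510, which matched that oyster protein too, was called higher, with 564 reads in PA and 129 reads in control, a log2 fold change of 2.11. Likewise 4 unigenes matched a mucin-2-like protein of a cichlid fish. Unigene31837 was called lower as given above, whereas CL4027.Contig2 had 575 reads in PA and 537 reads in control and was not called.

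The largest rises among unigenes of the group with at least 10 reads in each library were found in unigenes of low FPKM in the control library. CL2470.Contig5 (integumentary mucin C.1) had 279 reads in PA and 13.7 reads in control, at 4.34 (3.56 to 5.24). CL335.Contig6 of the same name had 367 reads in PA and 25.5 reads in control, at 3.83 (3.25 to 4.47). Unigene17301, matching Mucin-5AC, had 357 reads in PA and 35 reads in control, at 3.34 (2.83 to 3.88). With their clusters summed the values were 3.22 for CL2470 and 1.76 for CL335. In the control library these 3 unigenes stood at 1.01 to 1.99 FPKM. A choice by the largest ratio favours low control values, so no link between abundance and direction can be drawn from this.

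CL2433.Contig4 (integumentary mucin C.1) was the most abundant of the group in the PA library, with 109.86 FPKM (1554 reads), against 54.03 FPKM (757 reads) in the control library. Its log2 fold change of 1.02 (0.90 to 1.15) was just above the threshold and became 0.78 under TMM scaling, which was not called. The other contigs of its cluster match uromodulin, a protein of vertebrate urine, and the summed cluster stood at 0.23.

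**Figure D2:**
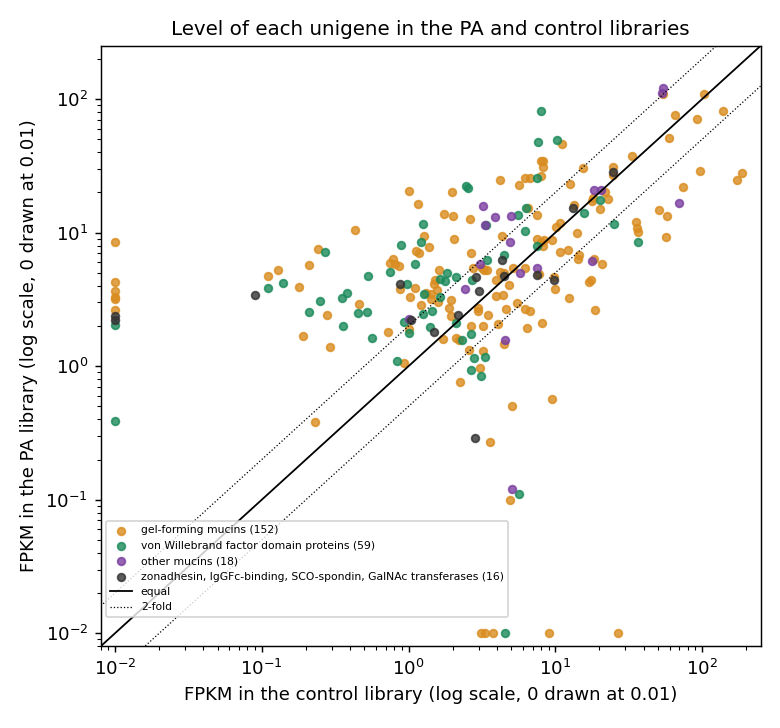
FPKM of each of the 245 unigenes in the PA library (vertical axis) against the control library (horizontal axis), both on log scales, with values of 0 drawn at 0.01, a line of equality and dotted lines at 2-fold. Gel-forming mucin unigenes spread to both sides, with Unigene31837 (27.9 in PA, 185.64 in control) at the far right, while most vWF domain proteins lie above the line.

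By the protein they matched, the gel-forming names differed in their counts. Of 80 unigenes matching integumentary mucin C.1, 30 were called higher in PA (37.5%) and 14 lower (17.5%), with a median log2 fold change of 0.25. Of 37 matching Mucin-2, 5 were called higher (13.5%, near the 13.3% of all unigenes) and 7 lower (18.9%), with a median of 0.08. Of 28 matching Mucin-5AC, 8 were called higher (28.6%) and 5 lower (17.9%), with a median of -0.05. Whether these proportions differ was not tested. Integumentary mucin A.1, another frog skin mucin, was matched by 4 unigenes, of which 3 were called higher and 1 lower. The most abundant of these in PA, Unigene5022, had 46.0 FPKM in PA and 11.1 FPKM in control, a log2 fold change of 2.05.

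Within the set named integumentary mucin C.1, several rises belonged to unigenes that Nr named otherwise. Unigene32665 had 193 reads in PA and 7 reads in control, Unigene2309 had 94 reads in PA and 32 reads in control, and Unigene42191 had 65 reads in PA and 3 reads in control. Nr gave all 3 as the oyster form of SVEP1, an adhesive extracellular matrix protein. Another 3, namely Unigene7038 (285 reads in PA, 70.0 in control), Unigene6222 (125 reads in PA, 17 in control) and Unigene29593 (70.1 reads in PA, 26.0 in control), were given as ADAMTS-16, a secreted metalloproteinase. All 6 of these unigenes were called higher.

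Member contigs of a cluster could be called in opposite directions. This was seen in 5 clusters: CL1076, CL2470, CL3438, CL4501 and CL4637. With contigs outside the members counted too, it was seen in further clusters, among them CL318, CL509, CL2433, CL4503 and CL5379. In CL1076, CL1076.Contig8 (Mucin-2) had 769 reads in PA and 229 reads in control, at 1.73. CL1076.Contig4 had 139 reads in PA and 465 reads in control, at -1.75, and CL1076.Contig3 had 34.3 reads in PA and 146 reads in control, at -2.10. Summed over its contigs the cluster stood at -0.21, so the opposite changes of its contigs nearly cancelled.

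A further set held 3 reads or fewer in a library. CL5023.Contig1 (Mucin-2) had 0 reads in PA and 354 reads in control, at least 119-fold lower against 3 reads, yet its cluster mate CL5023.Contig2 had 1073 reads in PA and 911 reads in control and the cluster stood at -0.25. Unigene22315 (Mucin-2), which had no cluster mate, had 0 reads in PA and 207 reads in control, at least 69.7-fold lower. CL618.Contig5 (Mucin-5AC) had 106 reads in PA and 2.37 reads in control, a log2 fold change of 5.43 (3.72 to 8.18), while its whole cluster stood at 0.84. When the reads of each cluster were summed, 64 of 195 clusters and lone unigenes were called higher (32.8%) and 24 lower (12.3%). Among all clusters and lone unigenes with at least 10 reads these shares were 11% and 7.79%.

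**Figure D3:**
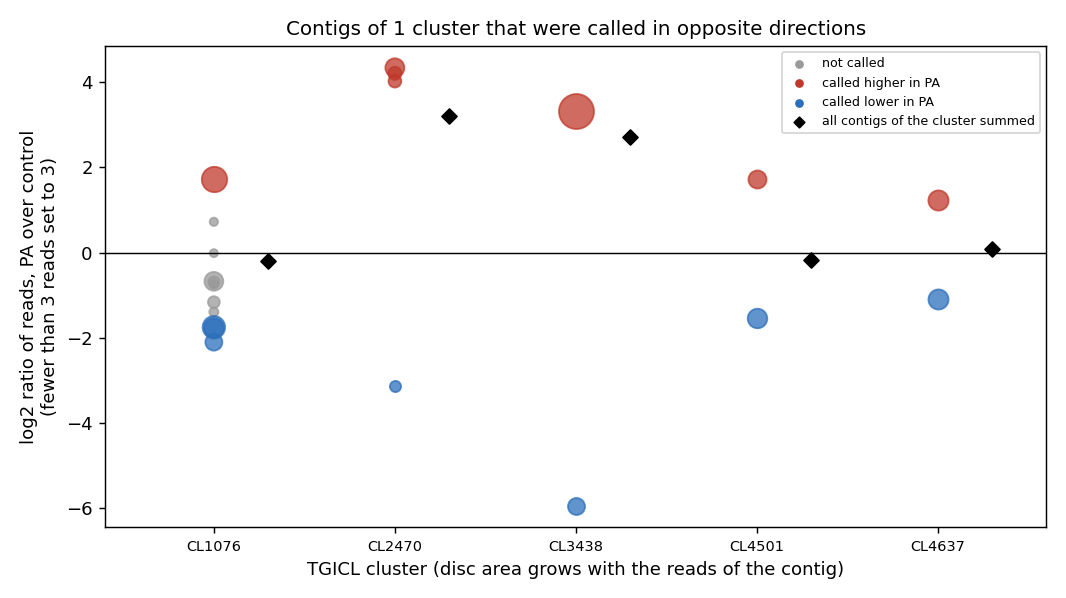
Log2 ratio of reads (PA over control, scaled to library totals, fewer than 3 reads set to 3) of the contigs of 5 clusters. These were the clusters with member contigs called in opposite directions. Red discs were called higher in PA, blue discs lower and grey discs not called, and disc area grows with reads. The black diamond is the whole cluster, which lay at -0.21 for CL1076 and at 2.71 for CL3438.

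The 18 unigenes named for other mucins were fewer but carried many reads, 18531.1 in PA and 11870.1 in control. Of these 6 were called higher in PA (33.3%) and 3 lower (16.7%), and their median log2 fold change was 0.72 (0.47 after TMM scaling). Most of the reads came from a pair of unigenes that matched human Mucin-22. Unigene9243 had 121 FPKM (7309 reads) in PA and 54.2 FPKM (3243 reads) in control, at 1.16 (1.10 to 1.22), and it was the most abundant member in the PA library. CL221.Contig2 had 110.23 FPKM (7240.0 reads) in PA and 53.4 FPKM (3472 reads) in control, at 1.05 (0.99 to 1.10). Their intervals were narrow, but both fell under the 2-fold threshold after TMM scaling, at 0.91 for Unigene9243 and 0.80 for CL221.Contig2. The InterPro signature of both was the thrombospondin type-1 repeat, a module of secreted matrix and adhesion proteins. It was listed for 4 members, all called higher, with 14688 reads in PA and 6747 reads in control in sum. Nearly all of these reads came from Unigene9243 and CL221.Contig2. The other 2 were named for gel-forming mucins, and 1 of the 4 had 0 reads in control.

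The third abundant unigene of the Mucin-22 name changed the other way. Unigene8669, whose signature was a SEA domain, had 16.6 FPKM (634 reads) in PA and 69.3 FPKM (2630 reads) in control, at -2.07 (-2.20 to -1.94). Unigene13347, matching Mucin-4, a membrane-bound mucin, had 319 reads in PA and 119 reads in control, at 1.41 (1.10 to 1.72). Unigene31383, matching Mucin-21, also membrane-bound in mammals, had 291 reads in PA and 82.9 reads in control, at 1.80 (1.44 to 2.17). Both were called higher. Sialomucin core protein 24, a small membrane sialomucin, was matched by both contigs of CL4501. CL4501.Contig2 had 182 reads in PA and 54.2 reads in control, CL4501.Contig1 had 85.6 reads in PA and 245 reads in control, and together they stood at -0.17.

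The unigenes named for vWF domain proteins were called higher far more often than lower. Of 59 unigenes 28 were called higher in PA (47.5%) and 5 lower (8.47%), against the 13.3% and 10.7% of all unigenes given above. Their median log2 fold change was 1.45, and 1.201 after TMM scaling. Their reads added up to 19016.6 in PA and 7308.2 in control, a 2.57-fold difference after scaling to library totals, and their summed FPKM was 509 in PA and 232 in control. Without this group, 56 of the other 186 members were called higher (30.1%) and 32 lower (17.2%), both above the shares of all unigenes, with a median of 0.23.

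The vWF D and EGF domain-containing protein (VWDE), a large secreted protein built of the type D module of the gel-forming mucins and of EGF-like modules, was matched by 25 of these unigenes. Of these 16 were called higher, 1 lower and 8 not called. Their median log2 fold change was 2.30 (2.05 after TMM scaling), and their reads added up to 10368.2 in PA and 3492.6 in control. The most abundant was CL3438.Contig1, with 81.0 FPKM (3437 reads) in PA and 8.03 FPKM (337 reads) in control, at 3.33 (3.17 to 3.50). Its cluster mate CL3438.Contig2 was the only VWDE unigene called lower, with 0 reads in PA and 183 reads in control, at least 61.6-fold lower. The cluster as a whole had 3437 reads in PA and 520.0 reads in control, at 2.71, so the fall of CL3438.Contig2 was reversed in the sum.

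The VWDE unigenes included the longest of all unigenes with at least 10 reads. CL1895.Contig3, with 17211 bases, had 13.5 FPKM (2426 reads) in PA and 5.54 FPKM (984 reads) in control, at 1.29 (1.18 to 1.40). Unigene14997, with 12154 bases, had 1935 reads in PA and 790 reads in control, at 1.28 (1.16 to 1.40). Both were called higher by nearly the same amount. Unigene14997 shared its best Nr match, an oyster VWDE, with CL1895.Contig2 and Unigene14996. Among the shorter unigenes, CL5013.Contig3 had 123 reads in PA and 13.2 reads in control, at 3.22 (2.38 to 4.14), and Unigene16371 had 138 reads in PA and 15 reads in control, at 3.19 (2.41 to 4.06). The 25 unigenes matched 11 Nr proteins and lay in 19 clusters or lone unigenes, so they were fewer genes than unigenes. With clusters summed, 14 of the 19 were called higher and 0 lower. Among the 13 whose Swiss-Prot match had an E-value of at most 1e-20, 9 were called higher and 1 lower, with a median log2 fold change of 1.46. Under an assumed biological coefficient of variation of 0.4 edgeR's exact test called 0 of the 25 higher and 1 lower. At that setting it called 0.581% of all unigenes with at least 10 reads higher and 1.02% lower, so few calls could fall among 25.

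**Figure D4:**
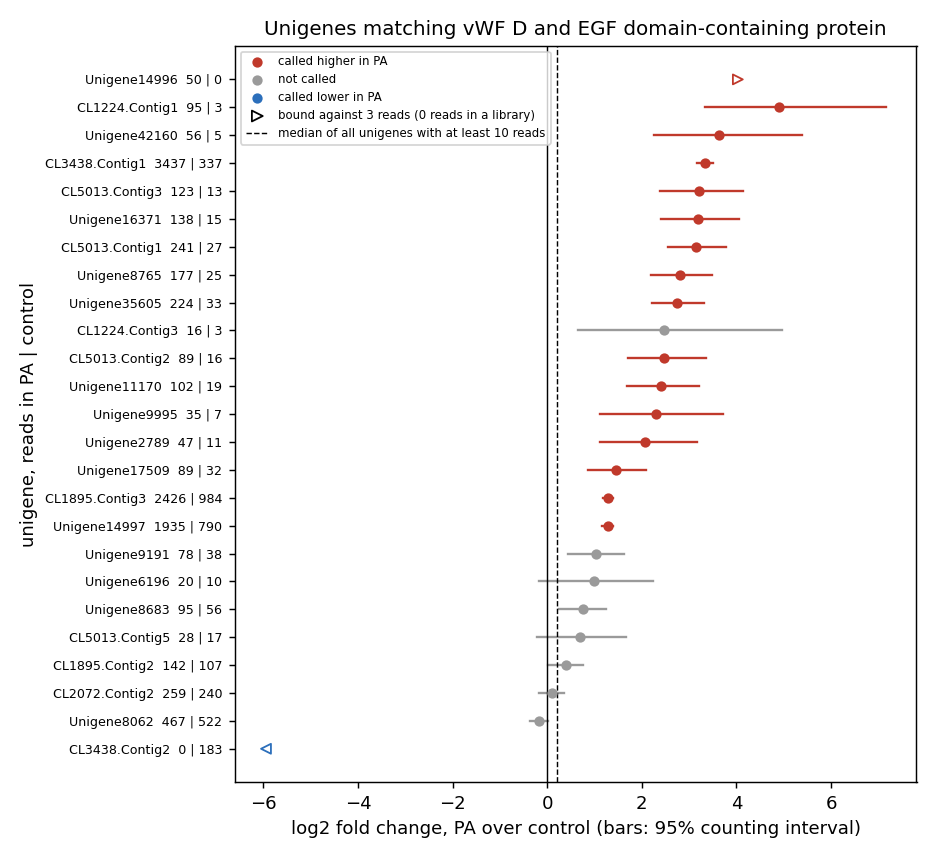
Log2 fold change (PA over control) of the 25 unigenes matching VWDE, with 95% counting intervals, reads in PA and control beside each name, and open triangles for the bound against 3 reads where a library had 0 reads. Red marks were called higher in PA, blue lower and grey not called, and all but CL3438.Contig2 and Unigene8062 lie above 0.

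The listed signature was a vWF type D domain for 11 members, all of them VWDE unigenes. Of these 9 were called higher and 0 lower, with 1623 reads in PA and 697 reads in control and a median log2 fold change of 2.47. The type A domain, a module of matrix and adhesion proteins, was listed for 1 unigene of this group and for 2 named for gel-forming mucins. All 3 were called higher, with 1189 reads in PA and 217 reads in control. The 2 were contigs of 1 cluster, CL3962, and CL3962.Contig1 at 1.01 was just above the threshold.

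Proteins of the type A family differed from each other by name. VWA7 was matched by a pair of unigenes with nearly equal values: Unigene15101 had 893 reads in PA and 105 reads in control, at 3.07 (2.78 to 3.38), and Unigene19429 had 867 reads in PA and 95 reads in control, at 3.18 (2.87 to 3.50). VWA5A, an intracellular protein in mammals, was matched by 5 unigenes with 4625 reads in PA and 1475 reads in control, of which 3 were called higher and 0 lower. The most abundant by FPKM, CL1488.Contig3, had 49.3 FPKM (1881 reads) in PA and 10.3 FPKM (388 reads) in control, at 2.26 (2.11 to 2.43). CL1723.Contig1, of the same name, had 640 reads in PA and 736 reads in control, at -0.22, and was not called. All VWA7 and VWA5A unigenes but this contig had positive log2 fold changes.

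VWA8, an ATPase of mitochondria in mammals, lay the other way. Its 5 unigenes had 62 reads in PA and 136 reads in control, and all 5 log2 fold changes lay below 0, between -1.89 and -0.01. Of these 1 was called lower, Unigene2614, with 9 reads in PA and 33 reads in control. VWA3B was matched by 4 unigenes with 88 reads in PA and 33 reads in control, all with positive values between 0.80 and 3.60, and 0 of them were called. These unigenes held few reads, and a change of the size seen was not detectable at this depth for most of them.

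SVEP1, which in mammals joins sushi, vWF type A, EGF and pentraxin modules and binds integrin, was matched by 14 unigenes. They were split, with 6 called higher, 3 lower, and 1620 reads in PA against 1683 reads in control. CL2897.Contig1 had 419 reads in PA and 16 reads in control, at 4.72 (3.98 to 5.52), and its cluster mate CL2897.Contig2 had 118 reads in PA and 0 reads in control, at least 39.0-fold higher. Unigene21533 had 183 reads in PA and 774 reads in control, at -2.10 (-2.34 to -1.86). Unigene7709 had 261 reads in PA and 557 reads in control, at -1.10, and Unigene22677 had 1 read in PA and 50 reads in control. These 3 shared a best Nr match, and all 3 were called lower.

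Markers of ciliated cells moved in the same direction as the vWF domain proteins. Of 82 unigenes named for axonemal dynein, radial spoke and other parts of cilia, 24 were called higher (29.3%) and 0 lower, against 13.3% and 10.7% of all unigenes, with a median log2 fold change of 1.41 and a summed FPKM of 961 in PA and 444 in control. Of these 82, 27 had at most 3 reads in the control library, and 1 had 0. Muscle markers were split, with 13 of 58 called higher (22.4%) and 8 lower (13.8%), and a summed FPKM of 1387 in PA and 1395 in control. Contigs of the muscle clusters CL1180 and CL89 were called in both directions, and these clusters stood at 0.53 and 0.60. Of 6 nerve markers 2 were called higher and 2 lower (33.3% each). The nerve calls included the 2 contigs of CL1162, called in opposite directions, whose cluster stood at 0.07. The 5 digestive gland markers and the 1 gonad marker were not called. These last 3 lists are too short to compare with the shares of all unigenes. In pooled tissue, a change in the number of cells of a type and a change in RNA per cell cannot be told apart, and the part of ciliated cells in the values of the vWF domain proteins was not tested.

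Zonadhesin, a sperm protein that binds the egg coat in mammals and shares the type D module, was the best match of 7 unigenes. Of these 3 were called higher and 1 lower. Nearly all reads came from Unigene3823, with 28.5 FPKM (2376 reads) in PA and 24.6 FPKM (2026 reads) in control, at 0.22 (0.13 to 0.30), which was not called. CL2929.Contig2 had 101 reads in PA and 61.2 reads in control, at 0.71 (0.24 to 1.195), and was not called either. The unigenes called higher were scarce: Unigene39515 had 39 reads in PA and 1 read in control, and Unigene33882 and Unigene35329 each had 14 reads in PA and 0 reads in control, at least 4.62-fold higher. Nr gave all 3 as the IgGFc-binding protein of the Pacific oyster. Under TMM or median of ratios scaling 1 zonadhesin unigene was called higher, and with a minimum of 50 reads 0 were.

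The IgGFc-binding protein, a partner of the mucin gel in the mammalian intestine, was itself named in Swiss-Prot for Unigene8766, which had 4.09 FPKM (76 reads) in PA and 0.87 FPKM (16 reads) in control, at 2.23 (1.44 to 3.11), and was called higher. SCO-spondin, a secreted protein of the brain ventricle in vertebrates, was matched by CL4937.Contig1, with 1204 reads in PA and 1015 reads in control. Its log2 fold change of 0.23 (0.11 to 0.35) was not called and was near the median of all unigenes.

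The enzymes that start mucin-type O-glycosylation were few. The 7 polypeptide N-acetylgalactosaminyltransferases (GalNAc transferases) had 754 reads in PA and 830.0 reads in control. Of these 0 were called higher and 1 lower (14.3%), with a median log2 fold change of 0.15. Among all unigenes with at least 10 reads 13.3% were called higher and 10.7% lower, and 7 unigenes are too few to tell their counts from these shares. Unigene8107, named for enzyme 5 of *Caenorhabditis elegans*, had 6.22 FPKM (198 reads) in PA and 4.32 FPKM (136 reads) in control, at 0.53 (0.20 to 0.85). CL3426.Contig2, named for enzyme 1, had 4.78 FPKM (136 reads) in PA and 7.52 FPKM (212 reads) in control, at -0.65 (-0.98 to -0.34). Neither was called. CL3426.Contig1, of the same cluster, had 91 reads in PA and 199 reads in control and was the unigene called lower. That call was lost with clusters summed, with a pseudocount of 1 FPKM, at a 4-fold threshold, and in edgeR's exact test at an assumed coefficient of 0.2 or 0.4.

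Later steps of the O-glycan pathway lie outside the 245 members. The galactosyl- and N-acetylglucosaminyltransferases that extend the first sugar were represented by 11 unigenes, of which 3 were called higher (27.3%) and 2 lower (18.2%). Unigenes named for a fucosyltransferase or carbohydrate sulfotransferase, families that include enzymes capping or modifying the chains, numbered 76, with 25 called higher (32.9%) and 8 lower (10.5%, near the 10.7% of all unigenes), a median log2 fold change of 0.82, and 9604 reads in PA against 6098 reads in control. They included 4 named for protein O-fucosyltransferases, which attach fucose to the protein itself, with 1 called higher and 2 lower, and several others act on substrates other than mucins. The name alpha-(1,3)-fucosyltransferase C, which adds fucose to the end of glycan chains, held 17 of them, with 3891 reads in PA and 1420.1 reads in control, 7 called higher and 0 lower. CL793.Contig5 and CL793.Contig10 supplied most of those PA reads, with 1145 and 934.65 in PA against 222 and 197 in control, at 2.35 and 2.23, but their whole cluster stood at 0.70. Of 41 unigenes for secretory granule exocytosis, syntaxins, synaptotagmins and their partners, 7 were called higher in PA (17.1%) and 4 lower (9.76%), and the middle value of 0.15 was near that of all unigenes. A search of Swiss-Prot names covered trefoil factors, anterior gradient proteins, chitin-binding peritrophins and calcium-activated chloride channel regulators, which accompany mucus secretion in other animals. It found no unigene with at least 10 reads. As a search of names only, it cannot show that such proteins were absent.

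The calls rest on counting error alone. When the biological coefficient of variation was assumed to be 0.2, edgeR's exact test called 55 members higher (22.4%) and 21 lower (8.57%). Among all unigenes with at least 10 reads these shares were 5.06% and 4.76%. With 0.4 it called 5 higher (2.04%) and 3 lower (1.22%), against 0.581% and 1.02%. At a 4-fold threshold 62 members were called higher (25.3%) and 17 lower (6.94%), against 6.97% and 6.11% of all unigenes. In these last 2 settings the share called lower was near that of all unigenes.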

How the data were processed

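Gill RNA of 1 PA and 1 control library, each pooled from 18 scallops, was compared. The study's authors assembled reads with Trinity 2.0.6 and clustered contigs into unigenes, mapped reads with Bowtie 2.2.5, and deposited the RSEM 1.2.12 expected counts per unigene. They also deposited FPKM values, scaled to unigene length and library total, and unigene length in bases. Their own fold changes, p-values and calls were in the deposited series table and were not used; its annotation columns were.

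Expected counts were rounded to whole numbers for the 2-sided Audic-Claverie test, with Benjamini-Hochberg adjustment over 60308 unigenes (Python 3.11.15, scipy 1.17.1). An FPKM of 0 was set to 0.01 for log2 fold changes. Clopper-Pearson bounds gave the 95% intervals, and the floor was 3 reads. Alternatives used edgeR 4.0.16. The test was also run on simulated reads with counting error only, which cannot check it against variation between animals.

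Named members were the 2 with most reads in each role group, the 8 largest rises and 8 largest falls where PA and control each held 10 reads or more, and the 5 called members with most reads among those with 3 reads or fewer in a library; other unigenes in the text were added to describe a group after their values were seen. The members and lists were chosen with earlier results of these data known. The suffix All was dropped from unigene names.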

Additional observations from a re-analysis of the deposited data

How the results depend on the processing

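With 1 library per condition no replicate could be left out, and no paired analysis was possible because a single library stood for each condition. Under TMM and median of ratios scaling, no minimum of reads, a minimum of 50 reads and a pseudocount of 1 FPKM, the counts of 84 members called higher and 37 lower moved by less than 1.5 times, and the median of 0.69 stayed positive. Summing clusters gave 24 lower, and a 4-fold threshold gave 17 lower. With edgeR's exact test the counts were 55 higher and 21 lower at an assumed coefficient of variation of 0.2, and 5 and 3 at 0.4. Keeping members with a mollusc as best Nr match left 112, with 47 higher, 16 lower and a median of 0.93. A Swiss-Prot E-value of at most 1e-20, chosen after seeing the data, left 107, with 31 higher, 17 lower and a median of 0.14. That median lay under the 0.21 of all unigenes with at least 10 reads, of which 13.3% were called higher and 10.7% lower. Fewer members entered under these last choices, which lowers the counts. Why the medians differed was not tested. Of 31 named unigenes, 3 were no longer called under TMM scaling, 4 with clusters summed, 5 at a coefficient of 0.2 and 20 at 0.4. The 31 included unigenes with no call to lose, so those left over were not all calls that held. These were Unigene3823, CL2929.Contig2, CL4937.Contig1, Unigene8107 and CL3426.Contig2. CL3438.Contig2 reversed to 2.71 with its cluster summed.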

Other observations

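The vWF type D domain was also listed for 2 unigenes outside the 245 members. Both were called lower in PA, with 71.8 reads in PA and 1533 reads in control in sum, against 9 of 11 called higher and 0 lower among the members. The vWF type A domain was listed for 25 further unigenes, with 3 called higher (12%) and 7 lower (28%) and a median log2 fold change of 0.35. Among all unigenes with at least 10 reads, 13.3% were called higher and 10.7% lower. Sushi domains were listed for 5 members, with 2 called higher and 3 lower and a median of -1.10, and for 153 other unigenes, with 29 called higher and 29 lower. EGF-like domains were listed for 11 members, with 5 called higher (45.5%) and 2 lower (18.2%). Among 104 other unigenes with them, 19 were called higher (18.3%) and 22 lower (21.2%). Immunoglobulin domains were listed for 4 members, all called higher, which lay in 3 clusters or lone unigenes. They were also listed for 105 other unigenes, with 30 called higher (28.6%) and 19 lower (18.1%). Thrombospondin type-1 repeats were listed for 24 unigenes outside the members, with 7 called higher (29.2%) and 5 lower (20.8%). SEA domains (7 members, 2 higher and 1 lower), lectin domains (6 members, 1 higher and 1 lower) and chitin-binding domains (3 members, 1 higher and 1 lower) were listed for few members. No difference between members and other unigenes was tested.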
